A study of Mus musculus with 6 samples.

Results

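The genes described here lie in 2 separate stretches of mouse chromosome 2, and most of those measured were higher in embryonic stem cells without Tex19.1. They are 30 named protein-coding genes, 20 in a first block from 130590002 to 132587729 and 10 in a second block from 144599897 to 148875692 (GRCm38, 12.01 Mb apart). The members were named with the genotype difference of this table known, so their fold changes and calls are a description of the members and support nothing further. Of the 30 names, 26 are rows of the authors' deposited table of 10128 genes, 17 from the first block and 9 from the second. Ap5s1, Spef1 and 1700037H04Rik of the first block and Thbd of the second are not analysed here. The lowest mean in the table that the authors deposited is 3.52 CPM (library-scaled counts), and a gene can pass such a limit on low values through the genotype in which it is high.

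RNA sequencing compared 3 libraries of Tex19.1+/- cells with 3 of Tex19.1-/- cells, and the comparison asks which transcripts change when the remaining copy of Tex19.1 is lost. All cells came from E14Tg2a, an established mouse line of 129/Ola background, at passages 12 to 18, and were grown on gelatin in serum with leukaemia inhibitory factor. Tex19.1 encodes a mammalian protein of germ cells and pluripotent cells. Both genotypes carry at least 1 disrupted allele, so no wild-type level is given, and the labels do not say how many clones of each genotype were used or whether the libraries of a genotype came from separate cultures. The p-values therefore measure the spread between these libraries, which may be technical. The deposited values are of the comparison only, and no spread between libraries can stand beside a fold change. A positive log2 fold change is read as higher in Tex19.1-/- cells, because Tex19.1 itself is lowest there: the authors' deposited table gives -6.92, or 0.828% of the Tex19.1+/- level.

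The 8 pluripotency genes checked, among them Pou5f1, Nanog and Sox2, were all measured, with means from 192 CPM for Utf1 to 1566 CPM for Dppa5a. By the authors' edgeR test 3 were higher, 2 lower and 3 not called, with values from -0.17 for Dppa5a to 0.36 for Zfp42. Of 15 endoderm markers 12 were measured and all 12 were lower, with a median log2 fold change of -2.05 and a summed level of about 1084 CPM in Tex19.1+/- and 462 CPM in Tex19.1-/- cells. Of 10 fibroblast or feeder markers 3 were measured: Fbn1 at -0.76 and Vim at -0.33 were lower and Fn1 at 0.23 was higher. Their summed level was 1035 CPM in Tex19.1+/- and 1123 CPM in Tex19.1-/- cells, of which Fn1 alone made up 796 and 934 CPM. The collagen genes Col1a1 and Col1a2 were not among those measured. The part of the endoderm difference in the results below was not tested. In bulk RNA, fewer cells of a type and less RNA per cell cannot be told apart.

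A chromosomal block of genes is a set of neighbours grouped by their place on the DNA. Mammalian genes next to each other mostly have their own promoters and unrelated products, so neighbours with a shared change in RNA level need not share a pathway. The products of these members include the replication clamp PCNA, the phosphatase CDC25B, the nuclear exonuclease XRN2, the prion protein and enzymes of lipid, nucleotide and coenzyme A metabolism.

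To show how different the members' start regions are, the 250 bases before the RefSeq start (GRCm38.p6) are given for 5 members: the first gene of the first block, the highest member, the replication clamp gene, the nuclear exonuclease gene and a member near 0. Capitals mark the motifs searched that fall in these bases, on either strand.
Ubox5, chr2:130630039-130630288, minus strand: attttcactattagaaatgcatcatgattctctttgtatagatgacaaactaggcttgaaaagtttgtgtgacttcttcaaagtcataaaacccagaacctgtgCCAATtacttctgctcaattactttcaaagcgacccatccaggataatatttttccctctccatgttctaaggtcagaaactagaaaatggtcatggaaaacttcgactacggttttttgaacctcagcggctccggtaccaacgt
Prnp, chr2:131909678-131909927, plus strand: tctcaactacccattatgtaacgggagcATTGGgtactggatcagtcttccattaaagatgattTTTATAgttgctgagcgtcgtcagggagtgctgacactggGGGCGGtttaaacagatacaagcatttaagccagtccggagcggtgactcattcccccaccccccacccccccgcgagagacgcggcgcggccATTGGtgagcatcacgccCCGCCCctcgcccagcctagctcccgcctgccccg
Pcna, chr2:132253181-132253430, minus strand: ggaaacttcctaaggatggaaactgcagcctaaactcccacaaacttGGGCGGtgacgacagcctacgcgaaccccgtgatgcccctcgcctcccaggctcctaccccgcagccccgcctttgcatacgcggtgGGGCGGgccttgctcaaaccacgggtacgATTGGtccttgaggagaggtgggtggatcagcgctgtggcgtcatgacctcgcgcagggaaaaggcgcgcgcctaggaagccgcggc
Xrn2, chr2:147012749-147012998, plus strand: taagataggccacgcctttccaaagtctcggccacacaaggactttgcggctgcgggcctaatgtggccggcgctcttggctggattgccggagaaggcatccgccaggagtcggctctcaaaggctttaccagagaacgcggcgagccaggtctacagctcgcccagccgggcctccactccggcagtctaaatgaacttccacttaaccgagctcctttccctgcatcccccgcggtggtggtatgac
Cst3, chr2:148875513-148875762, minus strand: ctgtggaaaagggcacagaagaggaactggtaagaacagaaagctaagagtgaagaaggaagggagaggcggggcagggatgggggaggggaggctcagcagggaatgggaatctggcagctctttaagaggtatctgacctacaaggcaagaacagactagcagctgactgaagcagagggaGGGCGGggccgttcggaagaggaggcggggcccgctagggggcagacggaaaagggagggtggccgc

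These start regions ranged from AT-rich to CpG-rich. The 250 bases of Ubox5 held 6 CpG and 38.8% GC, whereas those of Pcna held 22 CpG and 64.0% GC. Over the whole RefSeq windows of 300 bases, which run to 50 bases after the start, 28 of the 30 members matched with 32 promoters, Thbd and Gpcpd1 being the exceptions. Their median was 22.5 CpG, against 22.0 over the 9802 promoters of genes in the deposited table and 7 over all 32851 promoters. The GC box (GGGCGG or its reverse complement) occurred in 68.8% of the members' promoters, 66.0% of those of genes in the table and 35.7% of all. The CCAAT box (CCAAT) occurred in 46.9%, 38.3% and 37.4%, and the TATA box (TATAAA) in 3.13%, 6.29% and 13.6%. The ETS motif (CCGGAAGT) was present in 18.8% of the members' promoters, 8.97% of those in the table and 3.89% of all. It was found at Fastkd5, Itpa, Naa20, Tmem230, Ubox5 and Xrn2. Ubox5 and Fastkd5 start 36 bases apart on the same strand and share 264 of their 300 bases. The ETS and CCAAT matches of Ubox5 lie in this shared stretch and are counted for both genes. A GC box was found at Fastkd5 and not at Ubox5. The E-box (CACGTG) was found at Xrn2 and 1700037H04Rik, 6.25% of the members' promoters and 10.6% of those in the table. The 28 members matched include 1700037H04Rik, Spef1 and Ap5s1, which are not among the genes in the table. The core of the NRF1 motif (GCGCATGC) was found at Atrn alone, in 3.13% against 5.92%. The letters of 5 further motifs were in none of these windows: E2F in its forms TTTCGCGC and TTTGGCGC, CRE (TGACGTCA), YY1 (AAGATGGCG) and the octamer (ATTTGCAT). Those 5 occurred in 0.724%, 1.05%, 3.41%, 3.48% and 1.25% of the promoters of genes in the table, and in 0.323%, 0.514%, 1.79%, 1.40% and 1.74% of all. Matches at Ubox5 and Xrn2 that are not in capitals above lie outside the printed bases or run past their end. A match is a stretch of letters and not a shown binding site.

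The authors' edgeR test called 22 of the 26 measured members higher in Tex19.1-/- cells and 0 lower (adjusted p under 0.05). Of all genes 51.7% were called, 25.2% as higher and 26.5% as lower. With Bonferroni adjustment 21 members passed as higher, where 9.58% of all genes did. Nothing is read from that count, since the members were chosen on it. A log2 fold change of at least 0.4 was reached by 19 of the 26, where 3.31% of all genes reached it. The 17 measured members of the first block had a median log2 fold change of 0.57, or 1.49-fold, and the 9 of the second block had 0.26, or 1.2-fold. Over all 10128 genes the median was 0.00.

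**Figure D1:**
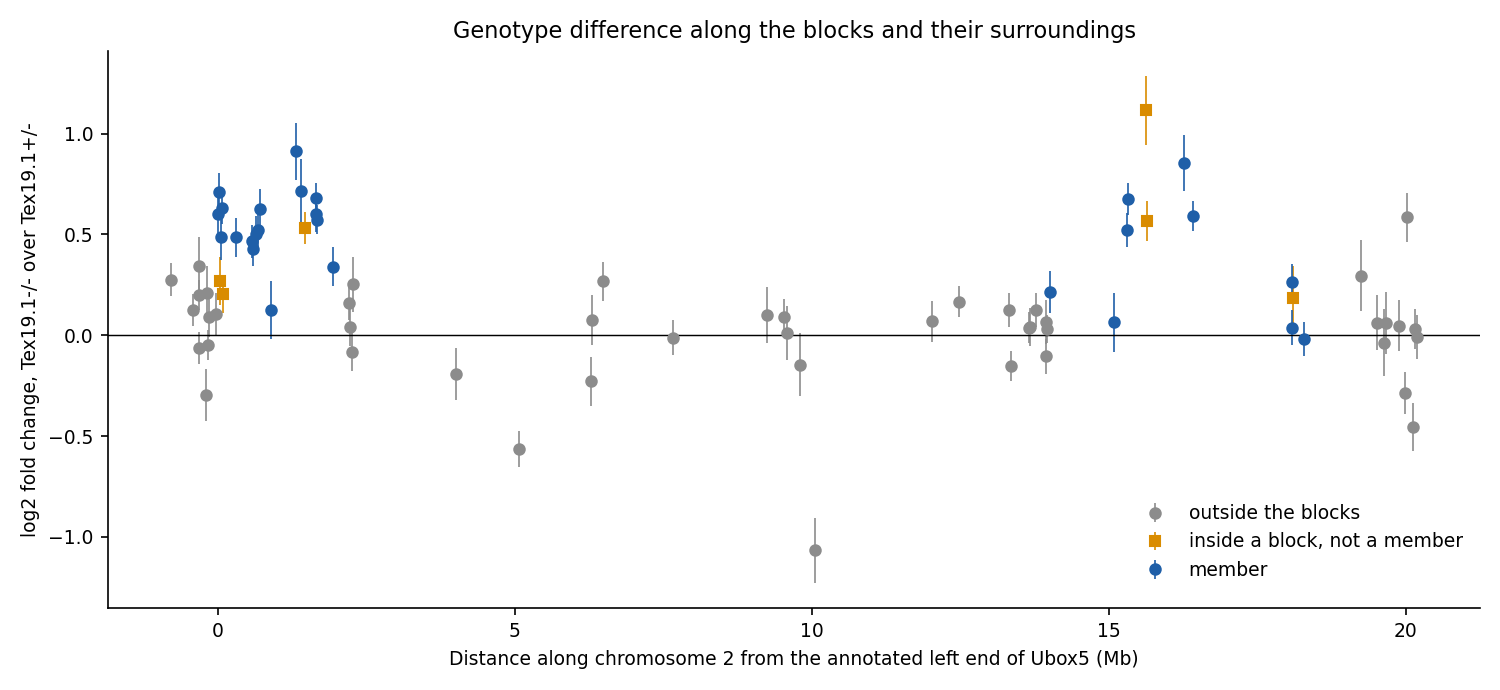
Log2 fold change (Tex19.1-/- over Tex19.1+/-) of each measured gene against its distance in Mb from the left end of Ubox5, with the 95% interval implied by the deposited p-value. Members (blue) stand between 0.34 and 0.91 in the first block except Smox at 0.12, and in the second block the high members lie between members at 0.26 or less; genes outside the blocks are grey and non-members inside them are orange.

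How far each member shares a common level was read from its distance to the median of the other measured members of its block. As a measure of error, the standard error implied by the deposited p-value was used, which is the size of the log2 fold change divided by the normal quantile of that p. It ranged from 0.036 to 0.079 in the first block (median 0.048) and from 0.037 to 0.075 in the second (median 0.044). In the first block 14 of 17 members lay within 0.2 of the median of the others, and for 7 of 17 the implied 95% interval held that median. The spread of the first block (SD 0.17 over 17 genes, median absolute deviation 0.09) was thus wider than the implied error of a single gene. In the second block 2 of 9 members lay within 0.2 of the others, Dtd1 and Nxt1, and the interval of none of the 9 held the median of the others (SD 0.31). The second block did not share 1 level in these terms: 4 of its members were at 0.52 or more and 5 at 0.26 or less.

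**Figure D2:**
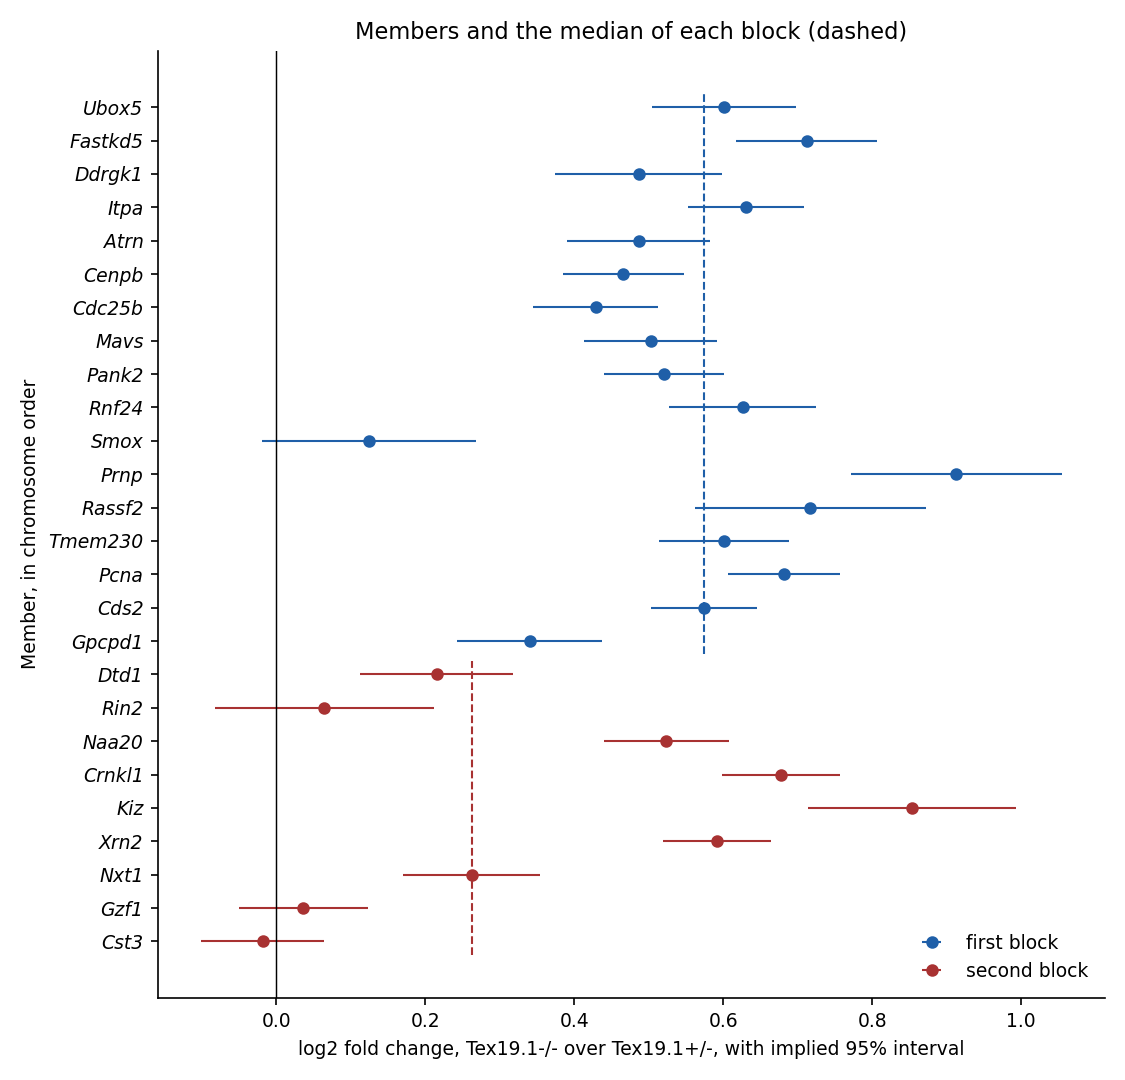
Log2 fold change of the 26 measured members in chromosome order, with 95% intervals implied by the deposited p-values and a dashed line at each block's median (0.57 and 0.26). Most of the first block clusters around its line with Smox, Prnp and Gpcpd1 apart, while the second block has a high group from Naa20 to Xrn2 and values from -0.02 to 0.26 on both sides.

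The closest to the common level of the first block were Cds2, Ubox5 and Tmem230. Cds2, which encodes an enzyme that makes CDP-diacylglycerol for phosphoinositide synthesis, stood at 0.57 (implied SE 0.036) per the authors' deposited table and the other members at a median of 0.56. Ubox5, a gene of a U-box ubiquitin ligase, and Tmem230, a gene of a membrane protein of the vesicle pathway, both stood at 0.60 per the authors' deposited table, 0.05 above the median of the others. Their implied SEs were 0.049 and 0.044. Pank2, Rnf24, Mavs and Ddrgk1 complete the 7 whose interval held the median of the others. They stood at 0.52, 0.63, 0.50 and 0.49 per the authors' deposited table.

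Smox, Prnp and Gpcpd1 did not share the level of the first block. Smox encodes spermine oxidase, an enzyme of polyamine breakdown; it stood at 0.12 per the authors' deposited table (implied 95% interval -0.02 to 0.27, adjusted p = 0.147 by the authors' edgeR test), 0.46 below the median of the others. Prnp, the gene of the prion protein, stood highest at 0.91 (0.77 to 1.05, adjusted p = 3.43e-35) per the authors' deposited table, 0.37 above the median of the others. Smox and Prnp are next to each other among measured genes, 384.0 kb apart, and the step between them of 0.79 (implied SE 0.10) was the steepest between neighbouring measured genes inside the blocks. Gpcpd1, a gene of glycerophosphocholine breakdown, is the last of the block and stood at 0.34 (0.24 to 0.44) per the authors' deposited table, 0.25 below the others. Smox and Prnp had low means, 9.0 and 9.56 CPM, and Gpcpd1 had 28.7 CPM.

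The mean level of a member did not order its fold change. Across the 26 measured members, log2 fold change and mean log2 CPM had a Pearson r of 0.14 and a Spearman rho of 0.10, which describes genes of the same libraries. With GC content r was -0.30 and rho -0.42, and with exon length r was -0.03 and rho -0.08. In the first block the 8 members on the plus strand had a median of 0.51 and the 9 on the minus strand 0.60, with ranges of 0.12 to 0.91 and 0.34 to 0.72 that overlap.

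Members of DNA replication and cell division spanned the range from abundant to scarce transcripts. Pcna, from 132249162 to 132253314 on the minus strand (ENSMUSG00000027342.14), encodes the sliding clamp that holds DNA polymerases on the template. The mean of 401 CPM and log2 fold change of 0.68 per the authors' deposited table imply about 308 CPM in Tex19.1+/- and 494 CPM in Tex19.1-/- cells, 1.60-fold (adjusted p = 8.17e-70). These implied means assume that the deposited mean weighs both genotypes equally. Per kilobase of exon Pcna had the highest mean of the measured members, 167 CPM, followed by Xrn2 at 55.6 CPM. The annotation lists processed pseudogenes of Pcna and of Itpa, among which reads may have been split. Cdc25b encodes a phosphatase that activates cyclin-dependent kinases at entry into mitosis; it stood at 0.43 (implied SE 0.043) per the authors' deposited table, or 1.35-fold. Cenpb, the gene of a protein that binds a motif of centromeric repeats, stood at 0.47 (0.041) per the authors' deposited table. Kiz of the second block, whose product stabilises the spindle poles, stood at 0.85 (0.071) per the authors' deposited table, from about 6.97 to 12.6 CPM. The interval of none of these 4 held the median of the other members of its block, with Cdc25b and Cenpb below and Pcna and Kiz above it.

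Genes that work with these products at other loci differed in both directions. Of 27 measured clamp loaders and clients of PCNA, 11 were higher and 1 lower per the authors' deposited table, with a median of 0.08 and a range from -0.13 to 0.20. The smallest p-values belonged to the histone chaperone subunit gene Chaf1b at 0.19, the clamp loader gene Rfc4 at 0.20 and Rnaseh2a at 0.16 per the authors' deposited table. Pcna stood at 0.68 and the highest of its listed partners at 0.20. Pcna was chosen with its value known, so nothing is read from this contrast. Of 12 genes of mitotic entry 4 were higher and 2 lower, with Bora, a cofactor of the mitotic kinase Aurora A, at -0.77, the inhibitory kinase gene Wee1 at 0.15 and Cdk1 at -0.12 per the authors' deposited table. Bora lies on chromosome 14. Of 18 other centromere protein genes 3 were higher and 2 lower, with Cenpu at 0.29, Cenpp at 0.22 and Cenpt at -0.14 per the authors' deposited table. Among 10 partners of Kiz and Spef1 at centrosomes and cilia 3 were higher and 1 lower, with the mitotic kinase gene Plk1 at 0.12, the centriole gene Sass6 at -0.20 and Pcm1 at 0.10 per the authors' deposited table.

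The RNA processing members were among the higher ones, apart from Nxt1. Xrn2, from 147012996 to 147078000 on the plus strand (ENSMUSG00000027433.5), encodes the nuclear exonuclease that degrades RNA from its 5′ end at transcription termination. It stood at 0.59 (implied SE 0.037, adjusted p = 1.49e-55) per the authors' deposited table, which implies about 177 CPM in Tex19.1+/- and 266 CPM in Tex19.1-/- cells. Crnkl1, a spliceosome gene, stood at 0.68 (0.040) per the authors' deposited table, from about 53.8 to 86.1 CPM. Fastkd5 encodes a protein of mitochondrial RNA processing and stood at 0.71 (0.048) per the authors' deposited table. It lies within the span of Ubox5 on the same strand, with 16188 bases in common, so reads from shared exons cannot be given to either gene with certainty. Nxt1, whose product partners the mRNA export factor NXF1, stood at 0.26 (0.047) per the authors' deposited table, or 1.2-fold.

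Partners of these RNA genes stood below the high members of the blocks, which the choice of those members by their values makes likely. Of 12 genes of RNA decay and termination 5 were higher and 1 lower, with a median of 0.02. Cdkn2aipnl stood at 0.22, the decapping enzyme gene Dxo at 0.28 and the termination factor gene Pcf11 at -0.19 per the authors' deposited table. Of 14 spliceosome partners of Crnkl1 5 were higher and 0 lower by the authors' edgeR test, led by Bcas2 and Ctnnbl1 at 0.15 and Cwc15 at 0.14 per the authors' deposited table. Of 12 mRNA export genes 8 were higher and 0 lower by that test (median 0.11), with Ddx39 at 0.21, Nxf1 at 0.15 and Thoc1 at 0.16 per the authors' deposited table. The highest of these export genes stood at 0.21, beside 0.26 for Nxt1, a difference that was not tested. Of the 5 other genes of the FASTK family 1 was higher and 1 lower, with Fastkd3 at 0.16, Fastkd2 at -0.09 and Fastkd1 at 0.05 (adjusted p = 0.437) per the authors' deposited table.

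Members of both blocks that modify proteins or proofread tRNA ranged from 0.22 to 0.63. Ddrgk1, a gene of the pathway that attaches the ubiquitin-like protein UFM1, stood at 0.49 (implied SE 0.057) per the authors' deposited table. Rnf24, a RING finger protein gene, stood at 0.63 (0.050) per the authors' deposited table. It overlaps the end of Pank2 on the opposite strand by 1125 bases; the strand setting of the counting is not given in the sources used here. Naa20, the catalytic subunit gene of the N-terminal acetyltransferase NatB, stood at 0.52 (0.043) per the authors' deposited table, from about 44.5 to 63.9 CPM. Dtd1, which encodes an enzyme that clears D-amino acids from tRNA, stood at 0.22 (0.053, adjusted p = 0.00015) per the authors' deposited table. It was the member that no longer passed with Bonferroni adjustment.

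Of 6 measured genes of the UFM1 pathway 3 were higher and 0 lower by the authors' edgeR test, with Cdk5rap3 and Ufsp2 at 0.23 and the ligase gene Ufl1 at 0.11 per the authors' deposited table. Among 10 other N-terminal acetyltransferase genes 3 were higher and 2 lower, with Naa16 on chromosome 14 at -0.53, Naa10 at 0.16 and Naa60 at -0.15 per the authors' deposited table. Of 5 genes listed with Dtd1 1 was higher and 1 lower: the tRNA synthetase genes Dars at 0.16 and Yars at -0.25, beside Dtd2 at 0.17, which did not pass per the authors' deposited table. None of these 21 partners reached 0.4 on the higher side, where 3.31% of all genes did.

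Metabolic members shared the level of the first block except for Smox and Gpcpd1. Itpa encodes an enzyme that removes inosine triphosphate from the nucleotide pool; it stood at 0.63 (implied SE 0.039) per the authors' deposited table, from about 59.0 to 91.3 CPM. Pank2, the gene of a mitochondrial pantothenate kinase at the start of coenzyme A synthesis, stood at 0.52 (0.041) per the authors' deposited table, from about 39.8 to 57.1 CPM. Cds2 rose from about 232 to 346 CPM by the same reckoning, and Gpcpd1 from 25.3 to 32.1 CPM. Smox had 8.61 and 9.39 CPM, a difference that did not pass.

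Among 7 genes of nucleotide pool sanitation 2 were higher and 2 lower, with Nudt18 on chromosome 14 at -1.01 and Dctpp1 at 0.27 per the authors' deposited table. Of 7 genes of coenzyme A synthesis and transport 3 were higher and 1 lower, with the carrier gene Slc25a42 at -0.57, Coasy at 0.29 and Pank1 at 0.29 per the authors' deposited table. Polyamine genes included 4 that were higher and 2 that were lower of 10. Sms, the spermine synthase gene on the X chromosome, stood at 0.89 per the authors' deposited table, above every measured member of the blocks except Prnp. Odc1, which encodes the first enzyme of the pathway, stood at -0.31 and the polyamine acetylating enzyme gene Sat1 at -0.28 per the authors' deposited table. Of 14 genes around CDP-diacylglycerol and glycerophosphocholine 4 were higher and 4 lower, with Cds1, the paralog of Cds2, at 0.50, Ptpmt1 at -0.49 and Cdipt at -0.32 per the authors' deposited table. Sms and Cds1 were the 2 of 203 measured partner genes that reached 0.4, which is 0.985% of the partners, beside 3.31% of all genes.

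Members at membranes and in signalling were Atrn, Mavs, Prnp, Rassf2, Tmem230 and Rin2. Atrn, the gene of the membrane protein attractin, stood at 0.49 (implied SE 0.049) per the authors' deposited table. Mavs encodes the mitochondrial adaptor of antiviral RNA sensing and stood at 0.50 (0.046) per the authors' deposited table, from about 27.9 to 39.5 CPM. Rassf2, a gene of a Ras association domain protein that binds Hippo pathway kinases, stood at 0.72 (0.079) per the authors' deposited table, from about 5.26 to 8.64 CPM. Prnp rose from about 6.63 to 12.5 CPM. GENCODE annotates a longer gene, Prn, over the whole span of Prnp on the same strand. Likewise the model of Spef1 covers Cenpb on the same strand, so reads of these pairs cannot be assigned with certainty. Rin2, which encodes an exchange factor of the endosomal GTPase RAB5, stood at 0.06 (0.075, adjusted p = 0.488) per the authors' deposited table.

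Of 9 measured genes of MAVS signalling 1 was higher and 3 lower, with the adaptor gene Tradd at -0.54, the RNA sensor gene Ddx58 at 0.31 and Tank at -0.19 per the authors' deposited table. Among 7 RASSF and Hippo kinase genes 1 was higher and 1 lower, with Rassf8 at -0.21, Sav1 at 0.16 and Stk3 at -0.09 (adjusted p = 0.183) per the authors' deposited table. Of 7 genes listed with Rin2 1 was higher and 2 lower, with Rin3 at -0.82, Rabgef1 at -0.30 and Rab5c at 0.13 per the authors' deposited table. Ap5s1 itself was not analysed here; of 4 other measured genes of the AP-5 sorting complex 1 was higher and 1 lower, with Ap5m1 at -0.16, Spg11 at 0.15 and Zfyve26 at -0.07 (adjusted p = 0.193) per the authors' deposited table.

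The last members of the second block were near 0. Gzf1, a zinc finger transcription factor gene, stood at 0.04 (implied SE 0.044, adjusted p = 0.508) per the authors' deposited table. Cst3, the gene of the secreted protease inhibitor cystatin C, stood at -0.02 (0.042, adjusted p = 0.742) per the authors' deposited table, with about 48.2 CPM in Tex19.1+/- and 47.6 CPM in Tex19.1-/- cells. Their implied 95% intervals ran from -0.05 to 0.12 and from -0.10 to 0.06, well below the level of the first block. Of 8 measured cystatin and cathepsin genes 1 was higher and 6 were lower (median -0.30), with Ctsc at -1.02, the legumain gene Lgmn at -0.57 and Ctsl at -0.37 per the authors' deposited table.

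**Figure D3:**
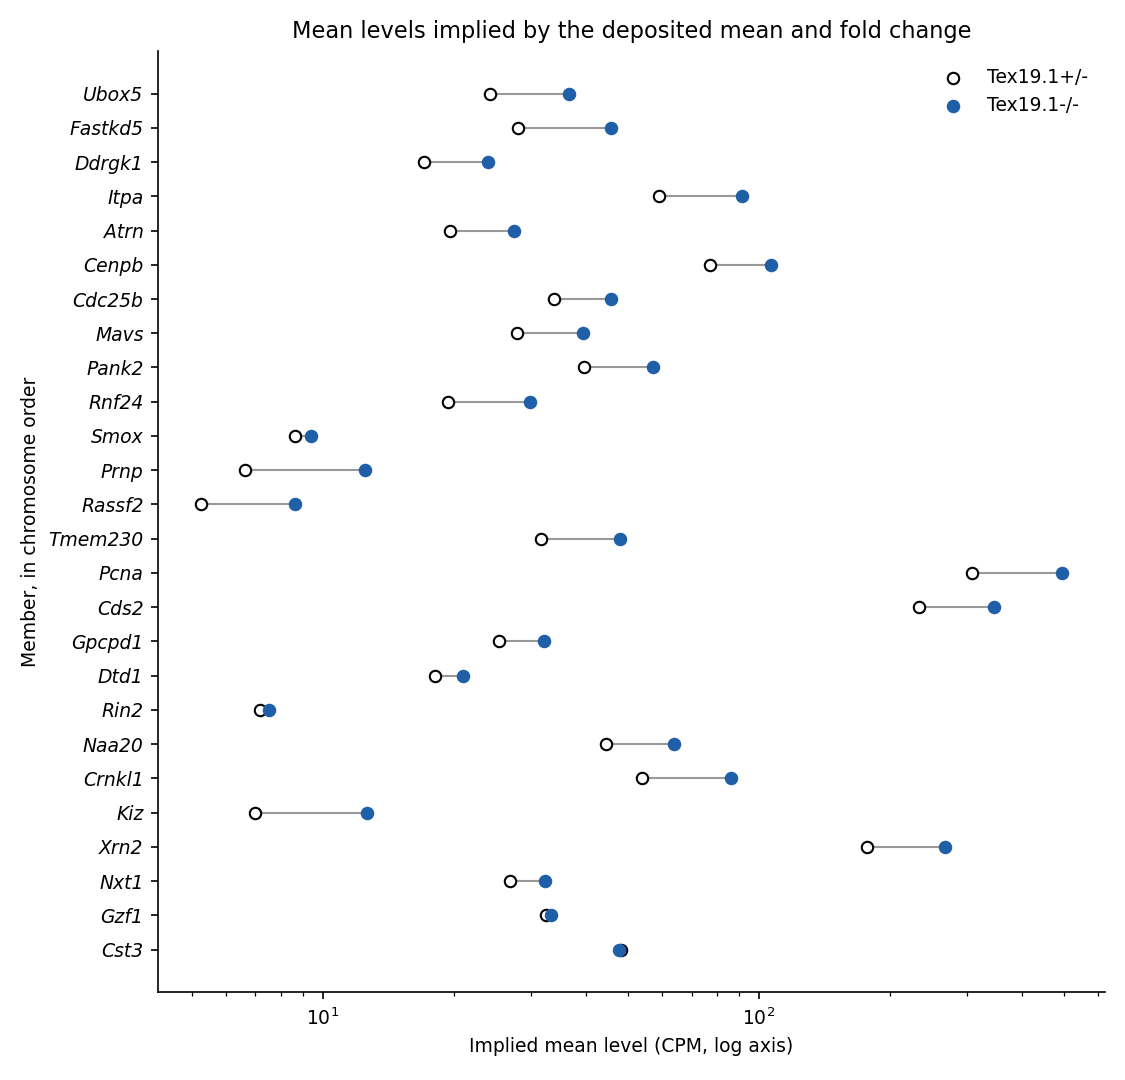
Mean level in CPM (log axis) implied for Tex19.1+/- (open) and Tex19.1-/- (blue) cells for each measured member, computed from the deposited mean and fold change. The members differ widely in level, from Rassf2 at 5.26 and 8.64 CPM to Pcna at 308 and 494 CPM, while the distance between the genotypes is similar for most of the first block.

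Over the 20 partner lists together, 64 of 203 measured genes were higher and 33 lower, with a median of 0.04. The same shares over all genes were 25.2% and 26.5%. Of the 203, 21 lie on chromosome 2. No difference between partners and members was tested, because the members were chosen by their values.

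**Figure D4:**
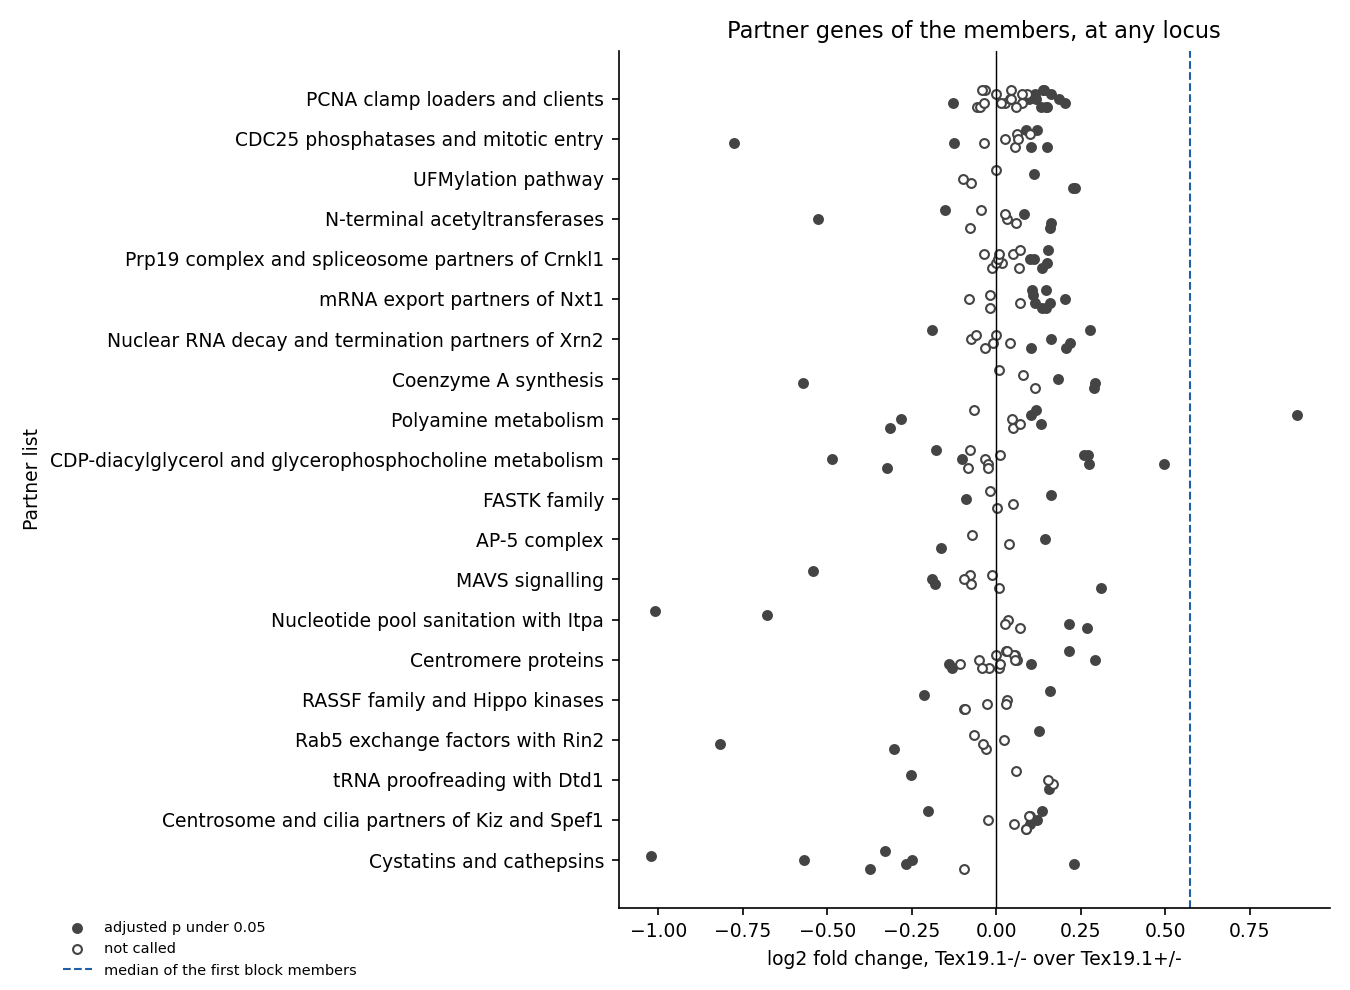
Log2 fold change of each measured partner gene by list, filled where the adjusted p was under 0.05, with the median of the first block (0.57) as a dashed line. Of the 203 partner genes only Sms, at 0.89, stands to the right of that line.

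Among measured genes the edges of the blocks differed in sharpness. The edges follow from the choice of members with their values known, so these steps are a description only. Before the first block, the nearest measured genes were Mrps26 at 0.10 (adjusted p = 0.103), 21.3 kb away, Ptpra at 0.09 (0.117), Vps16 at -0.05 (0.263), Pced1a at 0.21 and Cpxm1 at -0.30 per the authors' deposited table. From Mrps26, a mitochondrial ribosomal protein gene, to Ubox5 the value rose by 0.50 (implied SE 0.07). Past the end of the block, Gpcpd1 at 0.34 was followed after 216.5 kb by the tRNA methyltransferase subunit gene Trmt6 at 0.16, Mcm8 at 0.04 (adjusted p = 0.508), Crls1 at -0.08 (0.148), Lrrn4 at 0.25 and Tmx4 at -0.19 per the authors' deposited table. The values from Cds2 through Gpcpd1 and Trmt6 to Mcm8 went down in steps of 0.23, 0.18 and 0.12, each with an implied SE of 0.06 or 0.07. Gene by gene this end was more gradual than the start. The gaps differ, however: the steps into Gpcpd1 and Trmt6 span 217.0 and 216.5 kb, against 21.3 kb at the start.

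The second block began and ended within its own members. Sec23b, 9.15 kb before it, stood at 0.03, Rbbp9 at 0.06, Polr3f at -0.11, Csrp2bp at 0.12 and Mgme1 at 0.04 per the authors' deposited table. Dtd1 at 0.22 and Rin2 at 0.06 were closer to these than to the members that follow. The steep step lay between Rin2 and Naa20, which are 14.5 kb apart and differed by 0.46 (implied SE 0.09). At the far side, Xrn2 at 0.59 and Nxt1 at 0.26 are 1595 kb apart with 0 measured genes between them, although 7 protein-coding genes are annotated there. The genes after Cst3 were Syndig1 at 0.29, Zfp120 at 0.06, Zfp937 at -0.04, Gm21994 at 0.06 and Zfp345 at 0.05 per the authors' deposited table, and of these only Syndig1 passed.

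Measured genes inside the spans that are not members add 6 values. Slc23a2, a vitamin C transporter gene between Rassf2 and Tmem230, stood at 0.53 (implied SE 0.040, adjusted p = 2.89e-39) per the authors' deposited table. Lzts3 at 0.27 (0.061) and the membrane transporter gene Slc4a11 at 0.20 (0.049) per the authors' deposited table stood below the members on either side of them: Fastkd5 at 0.71 and Ddrgk1 at 0.49 flank Lzts3, and Itpa at 0.63 and Atrn at 0.49 flank Slc4a11. In the second block Insm1, a zinc finger gene of neuroendocrine development, stood at 1.12 (0.087, adjusted p = 3.23e-36) per the authors' deposited table, above every member, with a mean of 5.51 CPM. Its neighbour Ralgapa2, a gene of a GTPase-activating protein subunit, stood at 0.57 (0.051), and Napb, near the end, at 0.18 (adjusted p = 0.0488) per the authors' deposited table. All 6 passed as higher.

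The stretch between the blocks did not share the raised level. Of its 25 measured genes 6 were higher, 6 lower and 13 not called, with a median of 0.04. The highest value there was that of the Notch ligand gene Jag1 at 0.27 per the authors' deposited table. The lowest were those of the membrane protein gene Flrt3 at -1.07 and the phospholipase gene Plcb4 at -0.56 per the authors' deposited table. Of the 10 genes before the first block 5 were higher and 1 lower (median 0.12, highest 0.34), and of the 10 after the second 2 were higher and 2 lower (median 0.04). None of the 25 genes between the blocks and none of the 10 before them reached 0.4, while 1 of the 10 after them did, Acss1 at 0.59 per the authors' deposited table. Jag1, Flrt3, Plcb4 and Acss1 were chosen to be named after their values were seen.

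Read in gene order, most of the high values of the members lay in 3 runs of neighbours. With a level of 0.4, chosen after the values were seen, consecutive measured genes at or above it ran from Atrn to Rnf24 (6 genes, median 0.49), from Prnp to Cds2 (6 genes including Slc23a2, median 0.64) and from Naa20 to Xrn2 (6 genes including Insm1 and Ralgapa2, median 0.63). Ubox5, Fastkd5, Ddrgk1 and Itpa also reached 0.4 but lie in shorter stretches, broken by Lzts3 at 0.27 and Slc4a11 at 0.20. Over all genes with a position these 3 runs were the only ones of at least 4 genes on the higher side. On the lower side there were 8 runs of at least 4 genes, all on chromosome 14, the longest with 20 genes. In the last of the 3 runs on chromosome 2, from 145902099 to 147078000, the 4 members had a median of 0.63, beside 0.57 for the 17 of the first block. This run was picked out by its values, so the likeness of these levels is a description.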

How the data were processed

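Libraries of 3 Tex19.1+/- and 3 Tex19.1-/- samples were made with a stranded mRNA kit, per the labels' protocols. The submitters' processing notes list, without their roles, the tools HTSeq 0.11.2, TopHat2 2.1.0, Trim Galore 0.4.1 and edgeR, and the build mm10. How strand was counted is not given in the sources used here. Per the file headers, the authors deposited log2 fold changes, mean log2 CPM, p-values and adjusted p-values for 10128 genes; 0 columns hold values of single libraries, so depth is unknown and a planned count model could not be fitted. Adjusted p-values of members and all other genes are the authors', over all genes, with a threshold of 0.05.

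Members and lists were chosen with earlier results of these data known. Positions and lengths come from GENCODE M21 (GRCm38): 9573 symbols matched, 135 more through RefSeq synonyms, 420 did not. Python 3.11.15, numpy 2.4.6, scipy 1.17.1 and statsmodels 0.14.6 computed the medians, implied standard errors, runs and trends (lowess, span 0.3, fold changes limited to 1 in size), which were tested on simulated data. The genes named are all members, all other genes inside the blocks, the 5 nearest to each edge, Tex19.1 and the 3 of smallest p-value in each of 20 partner lists, of which 1 gene is not reported here; the marker genes given with values and Jag1, Flrt3, Plcb4 and Acss1 were chosen after their values were seen. Paf1 stands in the PCNA list by mistake and was left as listed.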

Additional observations from a re-analysis of the deposited data

How the results depend on the processing

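Of the 26 measured members, 22 passed as higher at an adjusted p under 0.05, where 25.2% of all genes did. At 0.01 the count was 22, beside 19.5% of all genes. With Bonferroni adjustment it was 21 (Dtd1 lost), beside 9.58% of all genes. With a log2 fold change of at least 0.2 it was 22, beside 12.0% of all genes. Among genes of at least 16 CPM 19 members passed, but this limit leaves out Smox, Prnp, Rassf2, Rin2 and Kiz by their means. Of these, Prnp, Rassf2 and Kiz had passed as higher. The first block's median of 0.57 stayed between 0.53 and 0.59 under all 8 alternatives, 1 of them (without Smox) chosen after seeing the data. The second block's median of 0.26 became 0.36 as a mean and 0.39 with all measured genes in its span. With 1 member left out it lay between 0.24 and 0.39, depending on the member. It became 0.20 with a trend on GC content and transcript length subtracted. Single members of both blocks shifted either way under that trend, such as Dtd1 from 0.22 to 0.16 and Atrn from 0.49 to 0.53. With Naa20, Crnkl1, Kiz and Xrn2 alone, chosen after seeing the data, the second block's median was 0.63. With Bonferroni adjustment, genes passing as higher fell from 3 to 1 among non-members in the first block, 6 to 1 between the blocks, 5 to 3 before and 2 to 1 after them, and 64 to 16 among partners; those lower fell from 6 to 2 between, 1 to 0 before and 33 to 20 among partners. With the size limit of 0.2, the higher fell from 6 to 2 between, 5 to 3 before and 64 to 20 among partners, and the lower from 6 to 3 between and 33 to 21 among partners. Among genes of at least 16 CPM, the higher fell from 3 to 1 for non-members in the second block, 5 to 3 before and 2 to 1 after, and the lower from 6 to 3 between and 2 to 1 after. Not every fall is listed: Napb also no longer passed at an adjusted p under 0.01, with Bonferroni adjustment or with the size limit. Lzts3 and Lrrn4 were left out by their means under 16 CPM. Fewer genes can pass a stricter rule by its construction, and the CPM limit also leaves fewer genes to count. No paired analysis was possible because the deposited table has no columns of single libraries; leaving out replicates, other normalizations and count filters were not run for the same reason.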
